A study of Mus musculus with 24 samples.

Results

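The 10 genes described here encode C-type lectin receptors of myeloid cells, and they were taken by name, as 10 of the 55291 gene names counted in each library: Clec4e, Clec4d, Clec4n, Clec7a, Clec5a, Clec4a1, Clec4a2, Clec4a3, Clec12a and Clec10a. They were measured by RNA sequencing in cultures of mouse pulmonary fibroblasts, 24 libraries in all, 3 for each of 8 conditions. The cells came from C57BL/6 wild type (WT) mice and from mice labelled TLR4-/-, on a C57BL/6 background, which lack Toll-like receptor 4 by their label. All mice were aged 4 to 8 weeks. The cells came from pools of 3 to 4 lungs and were used between passages 3 and 6. After a night in Opti-MEM, a reduced-serum medium, cells of each genotype received for 24 h either PBS, 1 μg/mL recombinant mouse CIRP (rmCIRP, a cold-inducible RNA-binding protein that acts as a danger signal when it is outside cells), 2 ng/mL of the recombinant mouse cytokine TGF-β1 (rmTGF-β1), which activates fibroblasts, or both. The study asked whether rmCIRP changes pulmonary fibroblasts through TLR4 and whether that needs TGF-β1, and the lectin genes were compared over the same conditions. Lungs were pooled for a preparation and the labels do not say that the 3 libraries of a condition are separate cultures, so p-values measure the spread between these libraries, which may be technical.

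C-type lectin receptors bind sugars or lipids of microbes and of damaged cells, and on macrophages, neutrophils and dendritic cells they set how strongly these cells respond. Most of the activating ones signal through an ITAM, a motif with paired tyrosines, which lies in a partner protein. The partner is the Fc receptor γ chain for Mincle, MCL and Dectin-2, encoded by Clec4e, Clec4d and Clec4n. For MDL-1, encoded by Clec5a, it is DAP12. Dectin-1, encoded by Clec7a, has a hemITAM in its own tail, a related motif without that pair of tyrosines. The signal runs through the kinase Syk to Card9, Bcl10 and Malt1. DCIR1 (Clec4a2) and MICL (Clec12a) instead carry an inhibitory motif, the ITIM, that recruits phosphatases. Clec4a1 and Clec4a3 encode DCIR4 and DCIR3, close relatives of DCIR1, and Clec10a encodes MGL1, an endocytic receptor for galactose-type sugars.

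Fibroblasts are not known as a main source of these receptors, so marker genes of other cells were read first. The 8 fibroblast markers summed to between 391670 and 567910 normalized counts (counts divided by the library's DESeq2 size factor) in every library, and the 14 macrophage markers were counted in every library as well. Their sum was 87311 to 94959 in WT libraries with PBS, 78551 to 83547 with rmCIRP, 316530 to 364400 in libraries labelled TLR4-/- with PBS and 309580 to 349720 with rmCIRP. Most of these reads were those of Lyz2, the lysozyme gene, which made up 846 ± 1.83 of every 1000 marker reads in WT libraries with PBS, 766 ± 3.38 with rmCIRP and 829 ± 4.01 (SD, n = 3) in libraries labelled TLR4-/- with PBS. Without Lyz2, the sum of the other 13 was 13305 to 14789 in WT libraries with PBS and higher with rmCIRP, at 18120 to 19643, while it was 55581 to 61086 in the labelled libraries with PBS and 51684 to 59166 with rmCIRP. The direction of the marker sum with rmCIRP in WT cells thus turned on Lyz2, and lectin values are given relative to these sums, though not each value to both. Of the 8 neutrophil markers, S100a9, Ly6g, Retnlg and Elane had at most 3 reads in any library, as had Flt3, Cd209a and Siglech of the 7 dendritic cell markers. From each of these lists 3 genes were tested, and 2 of each were called higher with rmCIRP in WT cells, against 19.8% of tested genes. The 4 markers of mast cells or basophils summed to 1687 to 2479 in WT and 1464 to 1845 in labelled libraries with PBS. Counts of lectin reads in such cultures cannot tell fewer cells of a type from less RNA per cell. Tlr4 itself was not lower in the libraries labelled TLR4-/-: its normalized count with PBS was 759 ± 41.9 in WT libraries and 903 ± 20.2 (SD, n = 3) in those libraries, a log2 fold change of 0.25 (adjusted p = 0.0012, SE 0.06), although per 1000 reads of the macrophage markers it was lower there, 2.67 ± 0.243 against 8.22 ± 0.235. The labels do not say which part of Tlr4 is deleted, and reads outside that part cannot check the label. Between 29853346 and 39664606 reads per library were assigned to genes. In the libraries labelled TLR4-/- with rmCIRP+rmTGF-β1, the third stands apart: the chi-square of its counts against the other two, per degree of freedom, was 50.6 and 34.6, against at most 17.2 for any other pair of libraries of 1 condition.

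Of the 10 genes, 9 lie on mouse chromosome 6 and Clec10a on chromosome 11. In the RefSeq order of protein-coding genes Clec4n, Clec4d and Clec4e are direct neighbours, as are Clec4a1 and Clec4a3, and Clec4a2 lies between Clec4b1 and Clec4b2. RefSeq promoters, 250 bases before to 50 after an annotated start, were found for 8 of the 10 genes, in 10 windows. These windows were searched on both strands for 4 short motifs of factors active in myeloid cells: GGG and TTTCC with any 2 bases between them (NF-κB), found in 1.63% of all 32851 windows of this length, TTGCNNAA (C/EBP), in 10.8%, TGANTCA (AP-1), in 7.81%, and GAGGAAG (PU.1), in 13.6%. No searched motif overlapped another in these windows. The NF-κB letters were in the windows of 0 of the 8 genes, the C/EBP letters in those of Clec4e and Clec12a, the AP-1 letters in those of Clec4a2 and Clec12a, and the PU.1 letters in those of Clec4d, Clec5a, Clec4a1 and Clec12a.

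The 250 bases before the start are printed for Clec4e and Clec12a, an activating and an inhibitory receptor gene whose counts rose with rmCIRP, and for Clec4d, the neighbour of Clec4e, with matches in capitals. They lie in GRCm38.p6 at chr6:123289872-123290121 on the minus strand (Clec4e), chr6:129349994-129350243 on the plus strand (Clec12a) and chr6:123261857-123262106 on the plus strand (Clec4d), and are written 5′ to 3′ along the gene. The capitals are a C/EBP match 66 bases before the start in Clec4e and a PU.1 match in Clec4d, both on the strand opposite to the one printed, and an AP-1, a C/EBP and a PU.1 match, in this order, in Clec12a. A match is a description of the letters and no sign that a factor binds there.
Clec4e: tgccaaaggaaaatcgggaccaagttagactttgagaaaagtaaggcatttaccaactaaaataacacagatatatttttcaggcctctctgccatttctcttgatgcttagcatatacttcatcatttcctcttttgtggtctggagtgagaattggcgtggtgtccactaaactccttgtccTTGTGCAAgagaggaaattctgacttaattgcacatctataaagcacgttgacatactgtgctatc
Clec12a: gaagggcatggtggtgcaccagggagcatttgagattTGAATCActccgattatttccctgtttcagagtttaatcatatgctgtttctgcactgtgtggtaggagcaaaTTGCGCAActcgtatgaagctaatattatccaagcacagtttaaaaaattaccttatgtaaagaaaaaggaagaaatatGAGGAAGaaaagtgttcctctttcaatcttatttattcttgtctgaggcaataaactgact
Clec4d: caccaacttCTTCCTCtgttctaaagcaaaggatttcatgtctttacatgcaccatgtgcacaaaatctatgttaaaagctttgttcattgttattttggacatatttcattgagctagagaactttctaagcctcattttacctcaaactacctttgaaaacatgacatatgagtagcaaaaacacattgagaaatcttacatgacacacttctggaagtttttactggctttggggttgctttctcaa

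All 10 genes passed edgeR's filter on low counts, Clec10a only through the libraries labelled TLR4-/-, since it had at most 4 reads in any WT library. Compared per length, as reads per kilobase of the gene's merged GENCODE M21 exons, scaled to the depth of the library (RPKM), the 5 activating receptor genes were the most abundant of the 10 in WT libraries with PBS. The order there was Clec4d at 38.0 ± 1.95 RPKM (SD, n = 3), Clec4n at 17.3 ± 1.16, Clec7a at 8.24 ± 0.925, Clec4e at 3.67 ± 0.413 and Clec5a at 3.41 ± 0.133. Clec4e and Clec5a overlapped in this order. Below them came Clec4a1 at 2.63 ± 0.139 RPKM, Clec12a at 1.50 ± 0.0669, Clec4a2 at 1.39 ± 0.259, Clec4a3 at 0.639 ± 0.121 and Clec10a at 0.0276 ± 0.0164, of which Clec12a and Clec4a2 overlapped. With rmCIRP, Clec4e moved from the fourth place to the first, at 61.4 ± 4.60 RPKM, without overlap with Clec4d at 50.3 ± 2.36, and it made up 40.3% of the summed RPKM of the 10 genes against 4.78% with PBS. Clec4a1, at 5.28 ± 0.534 RPKM, then lay above Clec5a, without overlap. In the libraries labelled TLR4-/-, Clec4d held the first and Clec4e the fifth place with each of the 4 treatments, and with PBS Clec4d stood at 116 ± 4.48, Clec4n at 66.4 ± 1.84 and Clec4e at 9.57 ± 0.457 RPKM. A total length over all exons is not the length of the transcript the cells make, so the order is a description at this annotation.

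**Figure D1:**
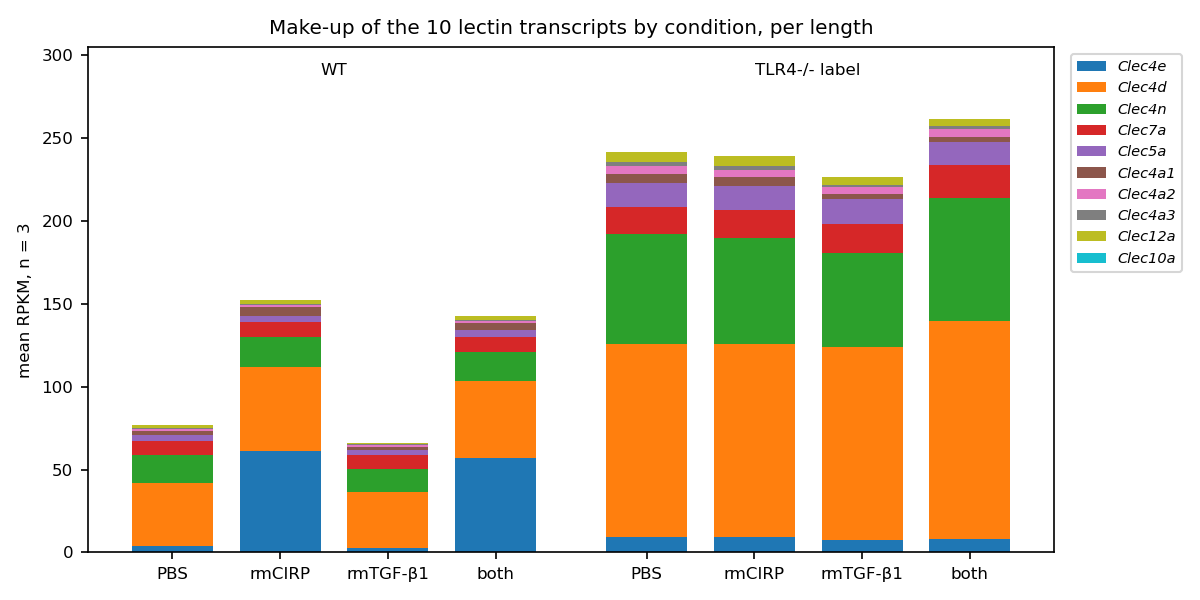
Mean RPKM of the 10 lectin genes, stacked, for the 8 conditions (n = 3 libraries each; reads per kilobase of merged exons, scaled to depth). Clec4e takes 4.78% of the stack in WT libraries with PBS and 40.3% with rmCIRP, and Clec4d is the largest part in all libraries labelled TLR4-/-.

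In WT cells, the rise of Clec4e with rmCIRP was the largest among the 10 lectin genes. The normalized count of Clec4e, which encodes the receptor for mycobacterial cord factor and for a protein of dead cells, was 534, 659 and 642 in the 3 libraries with PBS and 9888, 9790.3 and 11156 with rmCIRP. The groups lay far apart, a log2 fold change of 4.07 (adjusted p = 2.2e-18, SE 0.10), or 16.8-fold. Per 1000 reads of the macrophage markers it was 6.61 ± 0.434 with PBS and 126 ± 7.05 with rmCIRP (SD, n = 3), and per 1000 reads of the 13 markers other than Lyz2 it was 43.0 ± 2.44 and 537 ± 32.1, so it rose relative to both sums. Of the 14 macrophage markers 6 were higher and 7 lower with rmCIRP. The sum of the 8 neutrophil markers was 150 to 181 normalized counts with PBS and 400.1 to 439 with rmCIRP, and that of the 7 dendritic cell markers was 400.4 to 422 and 521 to 597. The part of such cells in the response was not tested.

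**Figure D2:**
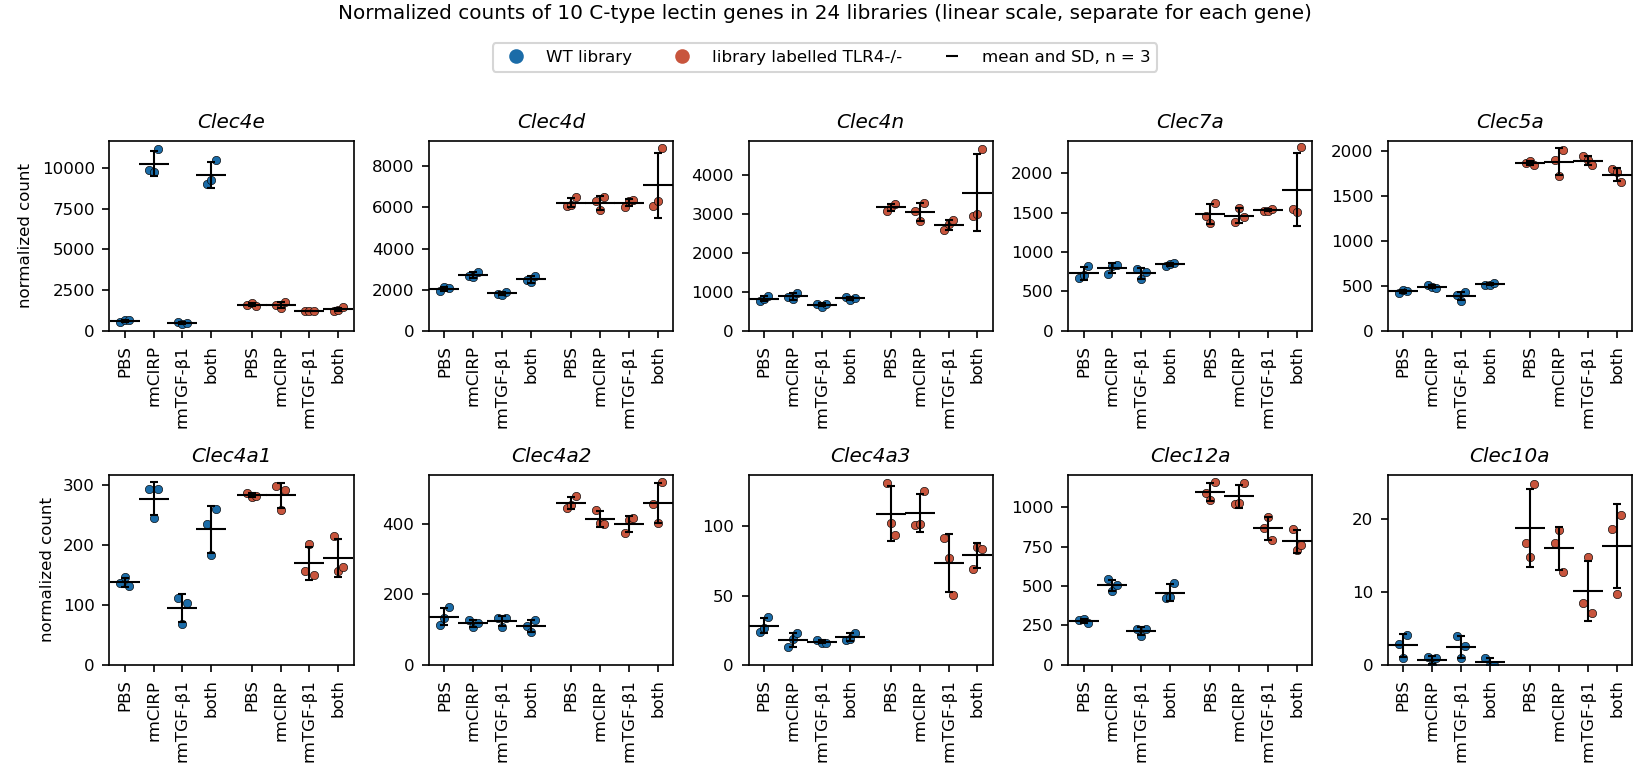
Normalized counts of the 10 lectin genes in the 24 libraries (points; linear axes, each gene on its own scale), with the mean and SD of the 3 libraries of each condition. Clec4e lies between 9041 and 11156 in the 6 WT libraries with rmCIRP, alone or with rmTGF-β1, and at most at 1781 elsewhere.

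Of the 10 genes, 5 were higher and 1 was lower with rmCIRP in WT cells at an adjusted p under 0.1, against 19.8% of all 16258 tested genes called higher, 24.1% called lower and 43.9% in either direction. The libraries of 6 did not overlap between the treatments, against 50.8% of tested genes. The median log2 fold change was 0.14 over the 10 genes and -0.02 over all tested genes. Of the 5 activating genes, Clec4e, Clec4d and Clec5a rose, but scaled on the 13 macrophage markers other than Lyz2, an alternative chosen after seeing the data that moves the median of all tested genes by -0.42, Clec4d stood at -0.02 and Clec5a at -0.27 on the log2 scale. Clec4d, which encodes MCL, the receptor that pairs with Mincle at the cell surface, had 1926, 2120.5 and 2072 normalized counts with PBS and 2643, 2633 and 2855 with rmCIRP. These groups did not overlap, and the log2 fold change was 0.41 (adjusted p = 0.0019, SE 0.10). Clec5a had 422, 453 and 444 with PBS and 514, 484 and 479 with rmCIRP, a log2 fold change of 0.16 (adjusted p = 0.088, SE 0.07). Per 1000 reads of the 13 markers other than Lyz2, Clec4d had 144 ± 1.13 with PBS and 142 ± 6.11 with rmCIRP, and Clec5a 31.0 ± 0.624 and 25.8 ± 1.21 (SD, n = 3). Clec4n and Clec7a, which encode the receptors for fungal mannans and β-glucans, overlapped between the treatments, at 0.09 (adjusted p = 0.64) and 0.12 (adjusted p = 0.49) on the log2 scale, and stood at -0.34 and -0.30 when scaled on those 13 markers.

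Of the 2 inhibitory genes, Clec12a was higher and Clec4a2 was not called, and the difference between them was not tested. Clec12a, which encodes a receptor for uric acid crystals, had 282, 289.5 and 264 normalized counts with PBS and 541, 471 and 505 with rmCIRP in WT cells. Each rmCIRP library was above each PBS library, a log2 fold change of 0.85 (adjusted p = 3.6e-07, SE 0.10), and 0.43 when scaled on the 13 markers other than Lyz2. Clec4a2, the DCIR1 gene, had 114, 134 and 163 with PBS and 127, 108 and 119.5 with rmCIRP, which overlapped, at a log2 fold change of -0.21 (adjusted p = 0.23, SE 0.14) and a 95% interval from -0.48 to 0.05, or -0.64 when scaled on those 13. Of its relatives 1 was higher and 1 lower: Clec4a1 rose from 137, 146 and 131 to 294, 245 and 292, a log2 fold change of 1.00 (adjusted p = 1.3e-05, SE 0.15), and Clec4a3 fell from 24.1, 27.0 and 34.3 to 12.7, 18.5 and 22.7, a log2 fold change of -0.65 (adjusted p = 0.080, SE 0.29). Clec4a1, Clec4a2 and Clec4a3 are close relatives, and reads that matched more than 1 place were not counted. Any reads that do not tell them apart are therefore missing from their counts. How alike their sequences are was not measured. Clec10a had 3, 1 and 4 reads with PBS and 1, 0 and 1 with rmCIRP, too few for a fold. The calls of the 2 genes closest to the threshold rested on single libraries. That of Clec5a was lost without WT PBS library 1 or 3 or rmCIRP library 1 (adjusted p up to 0.26). That of Clec4a3 was lost without WT PBS library 2 or 3 or rmCIRP library 1 or 2 (adjusted p up to 0.26). It was also lost with libraries scaled on the macrophage markers with Lyz2 included (adjusted p = 0.22). Per 1000 reads of the 13 without Lyz2, Clec4a3 had 2.00 ± 0.316 with PBS and 0.943 ± 0.263 with rmCIRP (SD, n = 3). Scaled on those 13, 3 of the 9 genes other than Clec10a were called higher and 5 lower. On the scale of all genes these counts were 5 and 1. Scaling on those 13 moves the median of all tested genes by -0.42.

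In the libraries labelled TLR4-/-, rmCIRP changed none of the 10 lectin genes at the threshold by edgeR's test or by DESeq2's, and 0% of all tested genes were called by edgeR. At an unadjusted p under 0.05 the count was 0 of 10 as well. Clec4e had 1592, 1681 and 1524 normalized counts with PBS and 1564, 1376 and 1781 with rmCIRP, which overlapped, a log2 fold change of -0.02 (adjusted p = 0.99, SE 0.09) with a 95% interval from -0.20 to 0.16. Its sign changed when 1 library was left out, between -0.11 and 0.06. The 10 log2 fold changes lay between -0.23, for Clec10a, and 0.02. The groups did not overlap for Clec4a2 alone, the 10% of 10 genes against 13.7% of tested genes, at 446, 452 and 477 with PBS and 439, 402 and 400.1 with rmCIRP.

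Whether the genotypes responded unequally to rmCIRP was tested as an interaction, which was called for 4 of the 10 genes, each with the smaller response in the libraries labelled TLR4-/-, against 14.3% of tested genes called in this direction and 31.4% in either. It was -4.08 (adjusted p = 1.2e-15, SE 0.13) for Clec4e, -0.996 (adjusted p = 8.3e-04, SE 0.20) for Clec4a1, -0.88 (adjusted p = 1.9e-05, SE 0.13) for Clec12a and -0.40 (adjusted p = 0.030, SE 0.13) for Clec4d on the log2 scale. The other 6 genes, Clec4n, Clec7a, Clec5a, Clec4a2, Clec4a3 and Clec10a, did not pass the test on the scale of all genes. Scaled on the 13 macrophage markers other than Lyz2, the interaction was -3.61 for Clec4e, -0.51 for Clec4a1 and -0.40 for Clec12a, while that of Clec4d was 0.08 (adjusted p = 0.52). On that scale the response in the labelled libraries was called higher for 5 of the 9 genes other than Clec10a and lower for 3. Scaled on all 14 markers these counts were 0 and 4. The median of all tested genes moves by 0.48 on the 13 markers and by -0.15 on the 14. The share of tested genes called on these scales was not counted. Macrophage markers differed in their response too: in the labelled libraries the response was called higher for 5 of the 14 and lower for 6. The part of these cells in the lectin responses was not tested.

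With rmTGF-β1 present, rmCIRP again raised Clec4e in WT cells. With rmCIRP+rmTGF-β1 the normalized count of Clec4e was 9041, 9253 and 10517, and with rmTGF-β1 alone it was 534, 415 and 502. Here too the groups lay far apart, a log2 fold change of 4.31 (adjusted p = 1.1e-18, SE 0.10). Of the 10 genes, 6 were higher and 1 was lower with both agents than with rmTGF-β1, against 20.5% of tested genes called higher, 21.7% lower and 42.2% in either direction, and the libraries of 8 did not overlap, against 50%. Among the activating genes, Clec4d rose by 0.45 (adjusted p = 8.7e-04, SE 0.10), Clec5a by 0.43 (adjusted p = 6.8e-05, SE 0.07) and Clec4n by 0.33 (adjusted p = 0.056, SE 0.13) on the log2 scale, while Clec7a stood at 0.21 (adjusted p = 0.21), and scaled on the 13 macrophage markers other than Lyz2, Clec4d (-0.12), Clec5a (-0.13), Clec4n (-0.23) and Clec7a (-0.35) had the opposite sign. Clec12a, an inhibitory gene, rose by 1.09 (adjusted p = 1.8e-08, SE 0.10) and Clec4a1, a DCIR gene, by 1.24 (adjusted p = 2.2e-06, SE 0.16). Clec4a2 and Clec4a3 stood at -0.17 (adjusted p = 0.38) and 0.26 (adjusted p = 0.57). The gene called lower, Clec10a, had 4, 1 and 3 reads with rmTGF-β1, against 1, 0 and 0 with both, with overlap, and its call (adjusted p = 0.089) was lost without rmTGF-β1 library 1 or 3 or library 2 or 3 of both agents (adjusted p up to 0.24). That of Clec4n was lost without rmTGF-β1 library 2 or library 1 or 3 of both agents (adjusted p up to 0.17).

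Set beside rmCIRP alone, rmCIRP+rmTGF-β1 changed 0 of the 10 lectin genes in WT cells by edgeR's test, against 20.5% of tested genes, and 0 by DESeq2's. At an unadjusted p under 0.05 the count was 1 of the 10, a level at which all tested genes were not counted. Clec4e stood at -0.10 (adjusted p = 0.47). The interaction of the agents in WT cells asks whether rmCIRP acted differently when rmTGF-β1 was present. It was called for 0 of the 10 by either tool, against 0.0492% of tested genes by edgeR. The interaction had an unadjusted p under 0.05 for 2 of the 10, a level at which all tested genes were not counted. For Clec4e it was 0.24 (adjusted p = 0.93, SE 0.13) with a 95% interval from -0.03 to 0.50. The comparisons named so far share libraries with each other: rmCIRP and rmTGF-β1 were set against the same PBS libraries.

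With rmTGF-β1 alone the lectin genes that moved were lower. In WT cells, 3 of the 10 were called, all lower, against 6.65% of tested genes called lower and 12.4% in either direction. Clec4e fell from 534, 659 and 642 to 534, 415 and 502, a log2 fold change of -0.34 (adjusted p = 0.049, SE 0.11). Clec12a fell from 282, 289.5 and 264 to 230.0, 183 and 227, a log2 fold change of -0.39 (adjusted p = 0.026, SE 0.11). Clec4a1 fell from 137, 146 and 131 to 112, 69.0 and 104, a log2 fold change of -0.54 (adjusted p = 0.049, SE 0.17). In each of these 3 genes all libraries with rmTGF-β1 were below all with PBS, as they were in Clec4d, Clec4n and Clec4a3, so that 6 of the 10 did not overlap, against 29.7% of tested genes. The 7 genes that were not called had log2 fold changes from -0.76 to -0.01. All 3 calls were lost without rmTGF-β1 library 2 (adjusted p of 0.16 to 0.26), those of Clec4e and Clec4a1 also without WT PBS library 2, that of Clec4e without WT PBS library 3 and that of Clec4a1 without WT PBS library 1. Relative to the macrophage markers, whose sum was 79121 to 90542 with rmTGF-β1, 0 of the 10 were called, against 6.62% of tested genes on that scale.

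The libraries labelled TLR4-/- had 5 of the 10 genes lower with rmTGF-β1, against 11.7% of tested genes called lower and 23.9% in either direction. Clec4e had 1592, 1681 and 1524 normalized counts with PBS and 1184, 1238 and 1221 with rmTGF-β1, without overlap, a log2 fold change of -0.39 (adjusted p = 0.0047, SE 0.09). Clec4a1 fell from 286, 279.8 and 282 to 157, 201 and 151, a log2 fold change of -0.74 (adjusted p = 9.0e-04, SE 0.14). Clec12a fell from 1087, 1043 and 1156 to 867, 936 and 792, a log2 fold change of -0.34 (adjusted p = 0.0063, SE 0.08). All 3 were thus lower in both genotypes, and 2 genes of few reads joined them here: Clec4a3, with 131, 103 and 93.6 and 91.8, 77.6 and 50.5 normalized counts, at -0.58 (adjusted p = 0.027, SE 0.18), and Clec10a, with 17, 14 and 25 and 9, 14 and 8 reads, at -0.91 (adjusted p = 0.079, SE 0.35). The call of Clec4a3 was lost without PBS library 1 or rmTGF-β1 library 3 (adjusted p up to 0.19), and that of Clec10a without library 1 or 3 of either treatment (adjusted p up to 0.31). The libraries of 6 genes, Clec4e, Clec4n, Clec4a1, Clec4a2, Clec4a3 and Clec12a, did not overlap, against 33.8% of tested genes. The interaction of genotype with rmTGF-β1 was called for 0 of the 10 by edgeR and by DESeq2, against 0.0861% of tested genes called by edgeR. It had an unadjusted p under 0.05 for 1 of the 10, a level at which all tested genes were not counted.

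With both agents in the labelled libraries, Clec4e, Clec4a1, Clec4a3 and Clec12a were lower than with rmCIRP alone and Clec7a was higher, 5 of 10 genes called against 32.8% of tested genes. The libraries of Clec4a1, Clec4a3 and Clec12a, 3 of the 10, did not overlap, against 34.5% of tested genes. On the log2 scale Clec4e stood at -0.26 (adjusted p = 0.038, SE 0.09), Clec4a1 at -0.67 (adjusted p = 0.0015, SE 0.14), Clec4a3 at -0.47 (adjusted p = 0.050, SE 0.17) and Clec12a at -0.45 (adjusted p = 4.4e-04, SE 0.08). Clec7a, at 0.29 (adjusted p = 0.070, SE 0.11), had 1376, 1565 and 1443 normalized counts with rmCIRP and 1549.5, 1503 and 2333 with both. Its groups overlapped, and the third library with both agents carried the rise: without it the log2 fold change was 0.06 (adjusted p = 0.67), and the call was also lost without rmCIRP library 1 or 3. That library was also the highest for Clec4d, at 6061, 6296 and 8896, and for Clec4n, at 2945, 3007 and 4679.8, and its sum of macrophage markers, 393940, was the highest of the 24 libraries. Its sum of neutrophil markers was 507, against 229 and 231 in the other two. It was not the highest for Clec5a, at 1800.0, 1765 and 1658, or Clec12a, at 863, 726 and 759. The call of Clec4e was lost without rmCIRP library 3 or library 1 or 2 of both agents (adjusted p up to 0.22), and that of Clec4a3 without rmCIRP library 3 or library 1 of both agents (adjusted p up to 0.19).

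Set against rmTGF-β1, both agents changed 0 of the 10 genes in the labelled libraries by edgeR's test, against 2.69% of tested genes, and 1 by DESeq2's. At an unadjusted p under 0.05 the count was 2 of the 10, a level at which all tested genes were not counted. Clec4n was the nearest to the threshold. Its normalized count was 2592, 2730.1 and 2840.2 with rmTGF-β1, against 2945, 3007 and 4679.8 with both, a log2 fold change of 0.37 (adjusted p = 0.10, SE 0.11), and 0.13 (adjusted p = 0.61) without the third library with both agents.

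Clec10a is left out of the counts and medians between the genotypes and given by its reads, since it passed the filter on low counts only through the labelled libraries. Between the genotypes, the other 9 lectin genes were all higher with PBS in the libraries labelled TLR4-/- than in WT libraries, against 23.2% of tested genes called higher, 24% lower and 47.1% in either direction, although 4 of the 9 were called lower there when scaled on the macrophage markers. None of the 9 overlapped between the groups, against 51.7% of tested genes without overlap. The median log2 fold change was 1.74 over the 9, -0.02 over all tested genes and 2.19 over the 14 macrophage markers, all of which were higher. Clec5a had 422, 453 and 444 normalized counts in WT and 1869, 1889 and 1843 in labelled libraries, a log2 fold change of 2.08 (adjusted p = 1.1e-16, SE 0.07). Clec4n had 776, 822 and 882 and 3077, 3189.7 and 3258, a log2 fold change of 1.94 (adjusted p = 8.5e-12, SE 0.12).

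Clec12a stood at 1.97 (adjusted p = 4.4e-14, SE 0.09), Clec4a3 at 1.94 (adjusted p = 8.0e-08, SE 0.21) and Clec4a2 at 1.74 (adjusted p = 2.2e-11, SE 0.12) on the same log2 scale, Clec4d at 1.61 (adjusted p = 3.2e-12, SE 0.10) and Clec4e at 1.38 (adjusted p = 7.1e-11, SE 0.10). The lowest values were those of Clec4a1, at 1.03 (adjusted p = 5.6e-06, SE 0.15), and Clec7a, at 1.02 (adjusted p = 4.3e-07, SE 0.12). The median was 1.61 over the 5 activating and 1.86 over the 2 inhibitory genes on this scale, and 5 of the 9 genes had the opposite sign on the scale of the macrophage markers. Clec10a had 8 reads over the 3 WT and 56 over the 3 labelled libraries, a ratio of 7.08 at equal depth with an exact 95% interval from 3.36 to 17.2 that covers counting error only.

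The macrophage markers moved with the genotype label, and the lectin genes were therefore also given against them. Scaling the libraries on the 14 markers in place of all genes shifts the median of all tested genes by -1.87 on the log2 scale in this comparison, so that it shows lectin reads relative to marker reads. On that scale 5 of the 9 genes were called with PBS, against 1.61% of tested genes called higher, 95% lower and 96.6% in either direction: Clec5a (0.21) was higher and Clec4e (-0.48), Clec4d (-0.26), Clec7a (-0.86) and Clec4a1 (-0.84) were lower, while Clec4n (0.07), Clec4a2 (-0.13), Clec4a3 (0.08) and Clec12a (0.10) were not called. With Lyz2 left out of the markers, 8 of the 9 values lay below 0, from -1.01 for Clec7a to -0.06 for Clec12a, and Clec5a stood at 0.06. Per 1000 marker reads, Clec4e had 6.61 ± 0.434 in WT and 4.73 ± 0.473 in labelled libraries, Clec4n had 8.94 ± 0.316 and 9.36 ± 0.394, and Clec7a 7.89 ± 0.639 and 4.36 ± 0.279 (SD, n = 3). The share of the genotype difference that comes with these cells was not tested, and the genotype of a culture and the pool of lungs it came from cannot be told apart.

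With rmCIRP, Clec4e was the one lectin gene of the 9 that was lower in the labelled libraries, and 7 were higher, of which 6 lay below WT when scaled on the 14 macrophage markers and 3 when Lyz2 was left out of these. Among tested genes 29.2% were called lower, 30.4% higher and 59.5% in either direction, and 8 of the 9 lectin genes did not overlap, against 62.3%. The normalized count of Clec4e was 9888, 9790.3 and 11156 in WT and 1564, 1376 and 1781 in labelled libraries, a log2 fold change of -2.70 (adjusted p = 8.2e-17, SE 0.09). Clec4a1, at 294, 245 and 292 and 298, 259 and 291, overlapped between the genotypes, with a log2 fold change of 0.04 (adjusted p = 0.85, SE 0.14) and a 95% interval from -0.23 to 0.30. The activating genes Clec5a, at 1.94 (adjusted p = 6.5e-17), Clec4n, at 1.80 (adjusted p = 1.9e-11), Clec4d, at 1.21 (adjusted p = 2.4e-10), and Clec7a, at 0.88 (adjusted p = 1.9e-06), were higher, as were Clec4a2, at 1.81 (adjusted p = 1.3e-11), Clec12a, at 1.09 (adjusted p = 3.5e-10), and Clec4a3, at 2.60 (adjusted p = 1.7e-09). Clec10a had 2 reads over the WT and 50 over the labelled libraries, a ratio of 23.6 with a 95% interval from 6.21 to 200.6 for counting error. Scaled on the macrophage markers, which moves the median of all tested genes by -2.02, Clec4e stood at -4.73, and Clec4d (-0.82), Clec4n (-0.22), Clec7a (-1.14), Clec5a (-0.08), Clec4a1 (-1.99), Clec4a2 (-0.21) and Clec12a (-0.94) had the opposite sign, while Clec4a3 (0.58) did not. With Lyz2 left out of the markers, Clec4d (-0.34), Clec7a (-0.66), Clec4a1 (-1.51) and Clec12a (-0.46) had the opposite sign, and Clec4n (0.26), Clec5a (0.40) and Clec4a2 (0.27) did not.

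The balance of activating and inhibitory receptors was described by the summed normalized counts of Clec4e, Clec4d, Clec4n, Clec7a and Clec5a over those of Clec4a2 and Clec12a, with no test, since the genes were put on the 2 sides by their known role. In WT cells with PBS the log2 ratio was 3.48 ± 0.029 (SD, n = 3) and with rmCIRP it was 4.60 ± 0.13, that is, mean ratios of 11.2 and 24.4, a rise of 1.12 that was 0.58 when the sums were taken per length. With rmTGF-β1 it was 3.60 ± 0.087, and adding rmCIRP brought 4.66 ± 0.074. In the libraries labelled TLR4-/- it was 3.21 ± 0.038 with PBS and 3.26 ± 0.032 with rmCIRP. With rmTGF-β1 it was 3.43 ± 0.081 there, and 3.63 ± 0.27 for both agents, where the 3 libraries stood at 3.36, 3.62 and 3.90, the third, which stands apart, the highest. The higher balance with rmCIRP in WT cells was carried by Clec4e: without it, the log2 ratio was 3.28 ± 0.021 with PBS and 2.97 ± 0.12 with rmCIRP, so that it was lower with rmCIRP. The sum of the other 4 activating genes was 4036 ± 223 with PBS and 4879 ± 225 with rmCIRP, and that of the 2 inhibitory genes was 416 ± 17.5 and 624 ± 44.6.

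**Figure D3:**
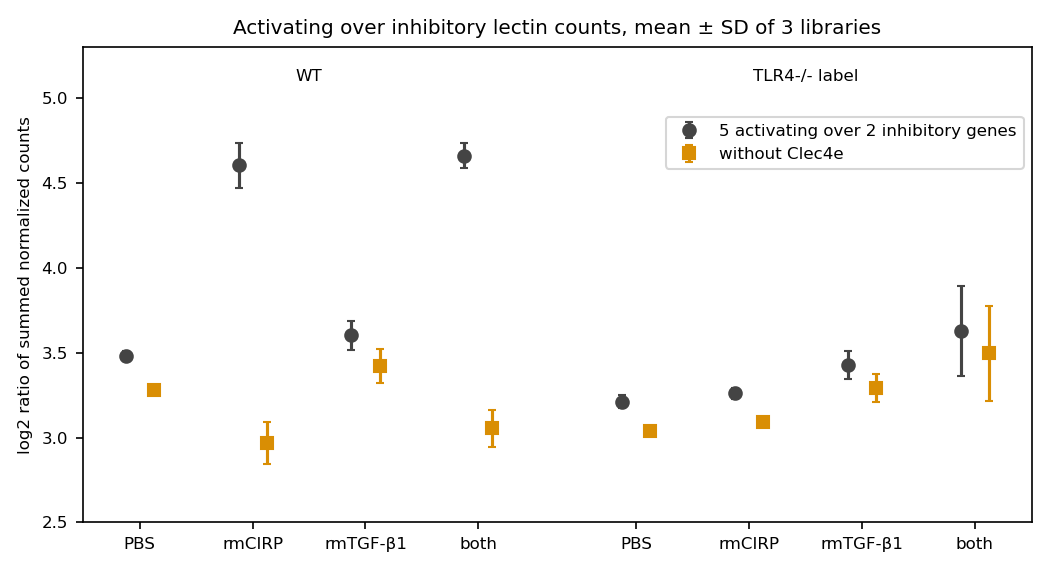
Log2 ratio of the summed normalized counts of 5 activating over 2 inhibitory lectin genes in the 8 conditions, mean and SD of 3 libraries, with all 5 (circles) and without Clec4e (squares); the axis does not start at 0. In WT libraries rmCIRP goes with a higher ratio, 4.60 against 3.48, and without Clec4e with a lower one, 2.97 against 3.28.

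The signalling partners of these receptors, a list of 15 genes that were all tested, changed in both directions with rmCIRP in WT cells: 6 were higher and 5 lower, against 19.8% and 24.1% of tested genes, and Hcst, Vav1, Ptpn6 and Ptpn11 were not called. Higher were Malt1 (log2 fold change 2.05, adjusted p = 4.9e-14), the protease at the end of the pathway, Syk (1.50, adjusted p = 2.1e-10), the kinase that ITAMs recruit, Fcer1g (0.57, adjusted p = 9.0e-07), the adaptor of Mincle and Dectin-2, and Prkcd, Lyn and Bcl10 (0.22 to 0.54 on the log2 scale). Lower were Inpp5d (-1.43, adjusted p = 5.7e-11), the lipid phosphatase SHIP1, Fgr (-1.12, adjusted p = 1.3e-04), Card9 (-0.81, adjusted p = 3.3e-04), the adaptor between Syk and Bcl10, Tyrobp (-0.39, adjusted p = 1.8e-04), which is DAP12, the adaptor of MDL-1, and Plcg2 (-0.36, adjusted p = 7.3e-04). The adaptors of Mincle and of MDL-1 thus moved apart: the normalized count of Fcer1g was 1090.3 ± 54.2 with PBS and 1629 ± 38.2 with rmCIRP, and that of Tyrobp 1629 ± 70.5 and 1248 ± 53.2 (SD, n = 3). These partner values with rmCIRP are on the scale of all genes. Scaling on the macrophage markers without Lyz2 moves the median of all tested genes by -0.42, and partner values on that scale are not given. In the labelled libraries 0 of the 15 were called with rmCIRP by edgeR, and 0 had an unadjusted p under 0.05. With PBS, 14 of the 15 were higher in the labelled than in the WT libraries and 1, Ptpn11, was lower, against 23.2% of tested genes called higher and 24% lower, with a median log2 fold change of 1.89 beside the 1.74 of the 9 lectin genes, but per 1000 macrophage-marker reads the means of 8 were higher and of 7 lower.

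Of 24 other C-type lectin genes listed, 13 were tested, and 4 of them rose and 6 fell with rmCIRP in WT cells, against 19.8% and 24.1% of tested genes. Cd69 (5.86, adjusted p = 1.1e-14), an early activation marker of leukocytes, Olr1 (1.78, adjusted p = 3.6e-06), the receptor for oxidized LDL and the neighbour of Clec7a, Clec2d (0.65, adjusted p = 3.5e-07) and Cd302 (0.21, adjusted p = 0.015) were higher. Clec14a (-1.60, adjusted p = 0.030), Mrc1 (-0.71, adjusted p = 1.9e-06), the macrophage mannose receptor, Clec11a (-0.48, adjusted p = 0.051), Mrc2 (-0.37, adjusted p = 1.3e-05) and Mgl2 (-0.29, adjusted p = 0.080), the neighbour of Clec10a, were lower, as was Cd207, which had 3 to 6 reads in the WT libraries with PBS and 0 to 1 with rmCIRP, too few for a fold. These values are on the scale of all genes, and those scaled on the macrophage markers without Lyz2 are not given. None of the 13 was called with rmCIRP in the labelled libraries by edgeR, and 1 had an unadjusted p under 0.05.

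The 3 genes most like each lectin gene in pattern were read from Pearson's r of log2 CPM (counts scaled to library depth) over the 24 libraries, which share the genotype and treatment differences, so that r describes likeness and carries no p. For Clec4e these were Tnf (0.99), AW112010 (0.99) and Trim21 (0.99), and its nearest relative among the 10 was Clec4a1, at 0.66. For Clec4d they were Cndp2, Slc11a1 and Hk3 (0.99 each), for Clec4n Prex1, Spp1 and Prkcb (0.99 each), for Clec5a Il10ra, Fyb and Ncf1 (0.99 to 1.00), and for Clec4a2 Itgam, Cd93 and B430306N03Rik (0.99 each). For Clec7a they were Ctsz, Rap2b and Cndp2 (0.98 each), for Clec12a Ccl12, Milr1 and Pid1 (0.98 each), for Clec4a3 Sfxn5, Gm42793 and Arap1 (0.97 each), for Clec10a Fgd4, Cep250 and Prkch (0.96 to 0.98), and for Clec4a1 Calcrl, Ikbke and Tnip3 (0.92 to 0.94). Clec4d and Clec4n were nearest to each other among the 10, at 0.99, while Clec4e, the direct neighbour of Clec4d, had no r above 0.66 with any of the other 9.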

How the data were processed

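Total RNA of cultured pulmonary fibroblasts was sequenced in 24 libraries, grouped by their labels. The authors used STAR2 and a mouse GENCODE reference for alignment and ht-seq for counting; the submitters' notes name FastQC, HTSeq and NCBIM37, while the GENCODE release and strand option are not given in the sources used here. The deposited values are raw counts per gene symbol; 5 tally lines that name no gene, 14.5% to 16.1% of a library's total, were left out. The counts were tested with edgeR 4.0.16 in R 4.3.3: filterByExpr (16258 of 34285 genes with a count), TMM, 1 mean for each condition, glmQLFit and glmQLFTest, Benjamini-Hochberg adjustment over all tested genes, adjusted p under 0.1 as in the study. There were 13 comparisons. The steps were tested on simulated data. Alternatives were DESeq2 1.42.0, other scalings, filters and thresholds, a replicate block, each library left out and, chosen after seeing the data, scaling on the macrophage markers without Lyz2. Standard errors are the log2 fold change over the square root of F, and intervals are 1.96 SE. Normalized counts are counts over DESeq2's size factors. Genes named are the 10 lectin genes, listed partners, lectins and markers past the threshold, and the 3 genes nearest each lectin gene whose mean normalized count was 50 or more. The lectin genes and all lists were chosen with earlier results of these data known. 1 gene planned for the partner list was left out and is not reported here. A planned search of protein sequences was not run.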

Additional observations from a re-analysis of the deposited data

Results flagged for a closer look

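The response to rmCIRP differed between the genotypes, by the interaction test in edgeR with adjustment over all 16258 genes, for 4 of the 10 lectin genes, against 14.3% of tested genes called in this direction and 31.4% in either. On the log2 scale the response in libraries labelled TLR4-/- minus that in WT libraries was -4.08 (adjusted p = 1.2e-15, SE 0.13) for Clec4e, -0.996 (adjusted p = 8.3e-04, SE 0.20) for Clec4a1, -0.88 (adjusted p = 1.9e-05, SE 0.13) for Clec12a and -0.40 (adjusted p = 0.030, SE 0.13) for Clec4d. The responses themselves were 4.07 and -0.02 for Clec4e in WT and labelled libraries, 1.00 and 0.00 for Clec4a1, 0.85 and -0.03 for Clec12a, and 0.41 and 0.00 for Clec4d. Scaled on the 13 macrophage markers other than Lyz2, the difference for Clec4d was 0.08 (adjusted p = 0.52 by edgeR). On that scale the response in labelled libraries was called higher for 5 of the 9 genes other than Clec10a and lower for 3. The share of tested genes called there was not counted. With 3 libraries a condition, no Dixon test of single libraries was run.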

How the results depend on the processing

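Of the 49 calls of a lectin gene in a comparison, none changed direction when a library was left out, with another test, filter, threshold or normalization, or with the replicate block, 12 were lost in at least 1 of 318 refits without a library, and 9 in at least 1 of 338 other refits; scaling on the macrophage markers reversed 11 and ended 10, and scaling on them without Lyz2, chosen after seeing the data, reversed 17 and ended 6. The 49 include calls of Clec10a between the genotypes, a gene that passed the filter only through the labelled libraries. The genes called among the 10 moved beyond 1.5 times as follows. The share of all tested genes called was not counted in most of these settings, so the numbers are no result about the lectin genes alone. For rmTGF-β1 against PBS in WT cells (3) they were 6 with no filter and 6 with only the libraries compared. They were 0 scaled on the macrophage markers, against 6.62% of tested genes, and 1 without Lyz2. For both agents against rmTGF-β1 in libraries labelled TLR4-/- (0) they were 1 with DESeq2, 3 with no filter, 1 with a mean count of at least 10 and 1 with the replicate block. For both against rmCIRP they were 1 with no filter and 2 with only the libraries compared in WT cells (0), and 3 at an adjusted p under 0.05 and 3 with only the libraries compared in labelled libraries (5). For the genotypes with PBS, with Clec10a left out (9 of 9), they were 5 scaled on the macrophage markers, against 96.6% of tested genes, and 5 without Lyz2. For the genotype difference in the rmCIRP response, with Clec10a left out (4 of 9), they were 8 without Lyz2. The cause was not tested. Without 1 library the counts ranged from 0 to 4 for rmTGF-β1 in WT cells, 3 to 5 in labelled libraries, 2 to 6 for both against rmCIRP and 0 to 3 for both against rmTGF-β1 in labelled libraries; the lowest came without WT rmTGF-β1 library 2, without PBS library 1 or rmTGF-β1 library 3, and without rmCIRP library 3, and the highest of the last without library 1 of both agents. Scaled on the macrophage markers, the log2 fold change between genotypes reversed with PBS for Clec4e (-0.48), Clec4d (-0.26), Clec7a (-0.86), Clec4a1 (-0.84) and Clec4a2 (-0.13), and with rmCIRP for Clec4d (-0.82), Clec4n (-0.22), Clec7a (-1.14), Clec5a (-0.083), Clec4a1 (-1.99), Clec4a2 (-0.21) and Clec12a (-0.94). With Lyz2 left out of the markers, values reversed with rmCIRP in WT cells for Clec4d (-0.018), Clec4n (-0.34), Clec7a (-0.30) and Clec5a (-0.27), with both agents against rmTGF-β1 for Clec4d (-0.12), Clec4n (-0.23), Clec7a (-0.35), Clec5a (-0.13) and Clec4a3 (-0.31), between genotypes with PBS for Clec4e (-0.64), Clec4d (-0.42), Clec4n (-0.090), Clec7a (-1.01), Clec4a1 (-0.996), Clec4a2 (-0.28), Clec4a3 (-0.080) and Clec12a (-0.060), with rmCIRP for Clec4d (-0.34), Clec7a (-0.66), Clec4a1 (-1.51) and Clec12a (-0.46), and in the genotype difference in the rmCIRP response for Clec4d (0.081), Clec4n (0.35), Clec7a (0.35) and Clec5a (0.34). Uncalled values near 0 also changed sign: Clec4e with rmCIRP in labelled libraries (0.0080 scaled on the markers, 0.035 without Lyz2, -0.11 to 0.063 without a library), Clec4a2 in the genotype difference in the rmCIRP response (-0.078 scaled on the markers, -0.071 to 0.17 without a library) and Clec4a1 between genotypes with rmCIRP (-0.045 to 0.092 without a library). The rise of the activating over inhibitory log2 ratio with rmCIRP in WT cells, 1.12, was 1.67 without Clec4d, and, in settings chosen after seeing the data, -0.31 without Clec4e and 0.58 per length. Over all conditions, same-numbered libraries had a mean correlation of deviations of 0.012 over 84 pairs (-0.12 to 0.37, 4 pairs over 0.1). With 3 numbers to match, 12 of 24 libraries correlated best with their own. The highest value, 0.37, was that of the third labelled libraries with rmTGF-β1 and with both agents, the latter being the one that stands apart. Whether the numbers pair libraries within the labelled genotype was not tested. Depth limits Clec10a, with at most 25 reads in any library, and Clec4a3.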
